A study of Ovis aries with 7 samples.

Results

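Axon guidance ligands and receptors were examined in nuclei of the sheep striatum. The group was taken by gene symbol and holds the SLIT ligands and ROBO receptors, the semaphorins, plexins and neuropilins NRP1 and NRP2, the ephrins and EPH receptors, the UNC5 receptors A to D, DCC, NTN1, NTN4, NTNG1, NTNG2 and RGMA. It comprised 70 of the 26479 features in the count matrices. The rule itself used no measured value, but it was set with earlier results of these data known. All sheep were 5 years old. OVT73 sheep are transgenic for human HTT, the huntingtin gene, inserted as a cDNA that encodes an expanded polyglutamine stretch and is driven by the human HTT promoter region. Controls were wild-type. Nuclei of the striatum were sequenced as 7 droplet libraries, 3 from OVT73 and 4 from control sheep. Each OVT73 library pooled 2 sheep, as did control libraries 3 and 4, while control libraries 1 and 2 held 1 sheep each. Pooled sheep were not separated, so the library was the replicate.

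Guidance molecules are secreted or membrane-bound cues and their receptors. SLIT ligands act through ROBO receptors and are mostly repellent. Netrins attract axons through DCC and repel them when UNC5 receptors take part, and class 3 semaphorins signal through neuropilins bound to plexins. Ephrins are themselves anchored to cell membranes and bind EPH receptors on neighbouring cells. In the mature brain many of these genes remain active in neurons and glia, where they bear on synapses, dendrites, myelin and the movement of precursor cells.

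The libraries held 27760110 to 70473426 unique molecular identifiers (UMIs) in OVT73 and 20887378 to 27704528 in control. After limits on detected genes and mitochondrial UMIs and removal of the nuclei with the highest doublet scores, 33226 of 35272 barcodes were kept, and 159 barcode sequences occurred in 2 libraries. Nuclei were clustered without the 70 guidance genes, and clusters were named from markers, so that each name carries the ending "-like". Of the defining markers, MBP, ALDH1L1, ADGRV1, DRD1, CASZ1 and SOX11 were not among the feature symbols. The oligodendrocyte, astrocyte, D1 medium spiny neuron (MSN), eccentric MSN and neuroblast names rest on the other markers of their lists. The feature with the identifier HTT, as opposed to the sheep gene, had 24 to 319 UMIs in OVT73 and 1 to 6 in control libraries. Control library 3 stood apart. Its OPC-like sum held oligodendrocyte markers at 1775 UMIs per 1000000 (CPM), against 111 to 414 in the other 6 libraries, and its astrocyte-like and microglia-like sums held them at 2236 and 2227 CPM, against 81.6 to 692 and 189 to 498. RNA free in the suspension was not removed. MSN markers summed to 1548 to 1849 CPM in oligodendrocyte-like nuclei and to 24094 to 26568 CPM in D1 MSN-like nuclei, so that low values outside a gene's main class can be background.

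Levels below are CPM of the UMIs summed per library and class, as the mean ± SD of 7 libraries. They describe classes within a gene and are not compared between genes, since transcript length was not used. Of the 70 genes, 55 reached a mean of at least 10 CPM in at least 1 of 12 named classes. The endothelial-like, cholinergic interneuron-like and SST/NPY interneuron-like classes had only 68, 41 and 108 nuclei, and their values are the least precise. Their smallest libraries held 4, 1 and 8 nuclei, yet each library has the same weight in the mean.

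**Figure D1:**
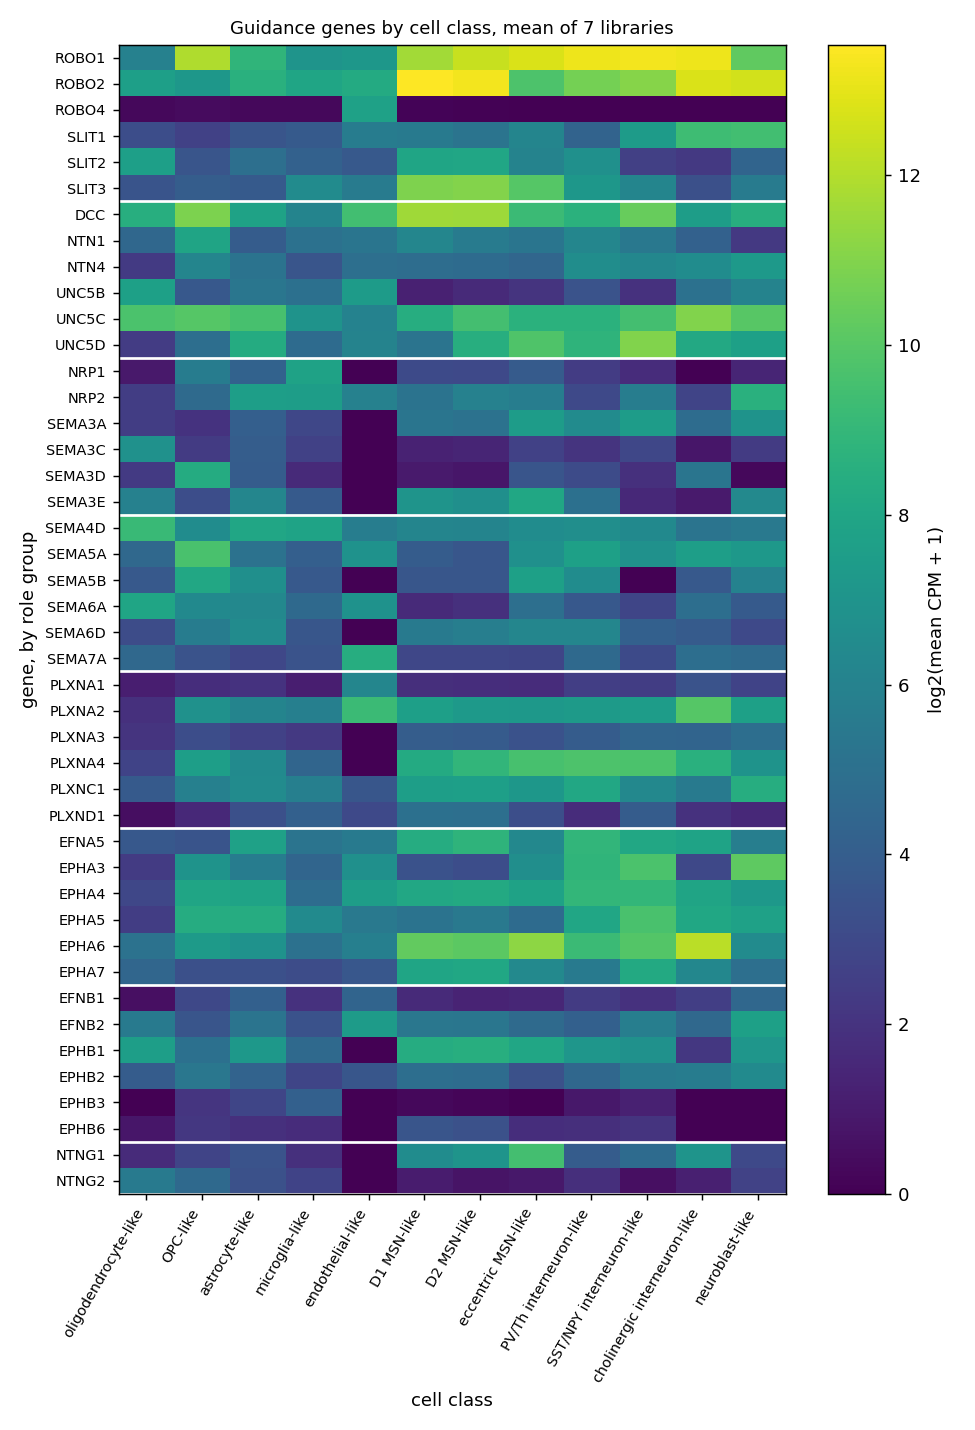
Mean level of 44 guidance genes (rows, in 8 role groups separated by white lines) in 12 marker-named classes (columns), as log2(mean CPM + 1) over 7 libraries. ROBO2 is brightest in D1 and D2 MSN-like nuclei, SEMA3D in OPC-like nuclei, and ROBO4 stands above the lowest colour only in endothelial-like nuclei.

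ROBO2, a SLIT receptor, was at 11925 ± 1932 CPM in D1 MSN-like nuclei and at 10233 ± 1365 CPM in D2 MSN-like nuclei, with 6233 CPM in neuroblast-like and 851 CPM in eccentric MSN-like nuclei. The paralogous receptor ROBO1 was ordered otherwise. It was at 9972 ± 1193 CPM in SST/NPY interneuron-like, 9568 ± 4218 CPM in cholinergic interneuron-like and 9411 CPM in PV/Th interneuron-like nuclei, and at 3199 CPM in D1 MSN-like nuclei. The first pair of these did not separate, since SST/NPY interneuron-like nuclei were the higher in 5 of 7 libraries.

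SLIT2 and SLIT3 were both highest in D2 and D1 MSN-like nuclei, and SLIT1 was highest in other classes. SLIT3 was at 2118 ± 128 CPM in D2 MSN-like and 1973 ± 122 CPM in D1 MSN-like nuclei, and at 1008 CPM in eccentric MSN-like nuclei. SLIT1 was at 684 ± 113 CPM in neuroblast-like and 657 ± 237 CPM in cholinergic interneuron-like nuclei, which were not ordered alike across libraries (3 of 7). SLIT2 was at 260 ± 124 CPM in D2 MSN-like, 248 ± 125 CPM in D1 MSN-like and 196 CPM in oligodendrocyte-like nuclei, against 10.8 CPM in OPC-like nuclei. ROBO4, the endothelial member of the family, had 39 UMIs in all named classes and reached 215 ± 204 CPM in endothelial-like nuclei.

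Among netrin genes, the receptor DCC was at 3117 ± 272 CPM in D1 MSN-like, 2980 ± 322 CPM in D2 MSN-like and 1893 CPM in OPC-like nuclei, and at 68.4 CPM in microglia-like nuclei. None of the repulsive netrin receptors UNC5A to UNC5D was highest in the same class as DCC. UNC5A and UNC5C were both highest in cholinergic interneuron-like nuclei, at 40.0 ± 25.5 and 1982 ± 717 CPM. Like DCC, UNC5C was also found in OPC-like (992 CPM) and D2 MSN-like nuclei (713 CPM). UNC5D was highest in SST/NPY interneuron-like nuclei at 2013 ± 767 CPM, above eccentric MSN-like nuclei (889 ± 266 CPM) in 7 of 7 libraries. UNC5B was at 206 ± 26.3 CPM in oligodendrocyte-like nuclei and at 1.36 CPM in D1 MSN-like nuclei. The ligand NTN1 was at 243 ± 25.4 CPM in OPC-like nuclei, above PV/Th interneuron-like nuclei (74.1 ± 27.9 CPM) in 7 of 7 libraries, and NTN4 was at 160 ± 51.5 CPM in neuroblast-like nuclei. RGMA, a membrane-anchored ligand of neogenin, was at 139 ± 20.2 CPM in astrocyte-like nuclei.

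Several semaphorins had their highest level in a glial class. SEMA3D was at 316 ± 54.6 CPM in OPC-like nuclei and SEMA3C at 115 ± 12.5 CPM in oligodendrocyte-like nuclei. SEMA5A, a transmembrane semaphorin, was at 798 ± 152 CPM in OPC-like nuclei, and SEMA4D was at 579 ± 38.8 CPM in oligodendrocyte-like nuclei. In each of these 4 genes the named class was above the next one in 7 of 7 libraries. NRP1, a neuropilin, was at 219 ± 57.5 CPM in microglia-like nuclei against 50.0 ± 10.3 CPM in OPC-like nuclei, and NRP2 was at 380 ± 85.9 CPM in neuroblast-like nuclei. Among the plexins, PLXNA4 was at 857 ± 154 CPM in PV/Th interneuron-like and 844 ± 239 CPM in SST/NPY interneuron-like nuclei, and PLXNC1 was at 349 ± 93.9 CPM in neuroblast-like nuclei.

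Of the ephrins and EPH receptors with the highest levels, most were highest in a neuronal or neuroblast-like class. EPHA6 was at 4584 ± 2655 CPM in cholinergic interneuron-like and 2448 ± 311 CPM in eccentric MSN-like nuclei. EPHA3 was at 1154 ± 367 CPM in neuroblast-like nuclei and at 9.5 CPM in D1 MSN-like nuclei. EPHA5 was at 809 ± 242 CPM in SST/NPY interneuron-like nuclei, above OPC-like nuclei (329 ± 63.7 CPM) in 7 of 7 libraries. The ephrin EFNA5 was at 481 ± 69.9 CPM in PV/Th interneuron-like and 443 ± 59.4 CPM in D2 MSN-like nuclei, and EFNB2 was at 207 ± 62.1 CPM in neuroblast-like nuclei. NTNG1, a membrane-anchored netrin relative that binds its own synaptic ligand rather than DCC, was at 719 ± 109 CPM in eccentric MSN-like nuclei and 128 ± 24.6 CPM in D2 MSN-like nuclei.

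D1 and D2 MSNs are the output neurons of the direct and indirect striatal pathways. Their nuclei were compared within libraries by edgeR's quasi-likelihood test with the library as a block and Benjamini-Hochberg adjustment over all genes tested. Of 51 guidance genes tested, 12 were higher and 6 lower in D2 than in D1 MSN-like nuclei at an adjusted p under 0.05, where 6.53% of all 11826 genes tested were higher and 6.2% lower. The log2 difference was above 0 in 26 of the 51 (51.0%), and in 48.9% of all genes tested.

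Genes higher in D2 MSN-like nuclei included receptors of several families. UNC5C was at 306 to 400 CPM in the D1 and 650 to 783 CPM in the D2 MSN-like sums of the 7 libraries, without overlap. Its log2 difference was 1.03 ± 0.04 (SE; adjusted p = 1.13e-10). ROBO1 ranged from 2375 to 4387 CPM in D1 and from 4204 to 7490 CPM in D2 MSN-like nuclei. The ranges overlapped, but D2 was the higher in 7 of 7 libraries (log2 difference 0.79 ± 0.05, adjusted p = 5.23e-06). PLXNA4 (0.60 ± 0.03, adjusted p = 7.64e-17), NRP2 (0.83 ± 0.05, adjusted p = 5.86e-14), EFNA5 (0.40 ± 0.03, adjusted p = 4.19e-10) and NTNG1 (0.42 ± 0.04, adjusted p = 2.77e-07) were likewise higher in 7 of 7 libraries.

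UNC5D, singled out after its values were seen, had the widest difference among the 18 called genes (3.73 ± 0.36, adjusted p = 0.000705). It was at 6.97 to 151 CPM in D1 and 137 to 752 CPM in D2 MSN-like nuclei, and higher in D2 in 7 of 7 libraries. The D1 maximum belonged to control library 2, and the other libraries lay at 6.97 to 32.9 CPM in D1.

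Of the 6 genes lower in D2 MSN-like nuclei, ROBO2 ranged from 7868 to 13534 CPM in D1 and from 7393 to 11420 CPM in D2 MSN-like nuclei, and was lower in D2 in 7 of 7 libraries (log2 difference -0.21 ± 0.02, adjusted p = 4.75e-10). Thus ROBO1 and ROBO2, receptors for the same ligands, differed in opposite directions between these classes. PLXNA2 (-0.32 ± 0.04, adjusted p = 3.17e-07), EPHA6 (-0.17 ± 0.02, adjusted p = 6.07e-07) and SEMA3E (-0.27 ± 0.04, adjusted p = 1.09e-05) were also lower in 7 of 7 libraries. NTN1 (-0.53 ± 0.12, adjusted p = 0.0299) and SEMA3A (-0.16 ± 0.05, adjusted p = 0.0301) lay near the threshold. NTN1 lost its call without OVT73 library 3 or control library 1, 3 or 4 (adjusted p = 0.0558 to 0.0713), and SEMA3A without OVT73 library 1 or 3 or control library 1 or 4 (adjusted p = 0.0645 to 0.180) and by DESeq2 (adjusted p = 0.283). The SEMA3A call was also lost with the guidance genes kept in the clustering (adjusted p = 0.104) and with high doublet score nuclei kept (adjusted p = 0.138).

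**Figure D2:**
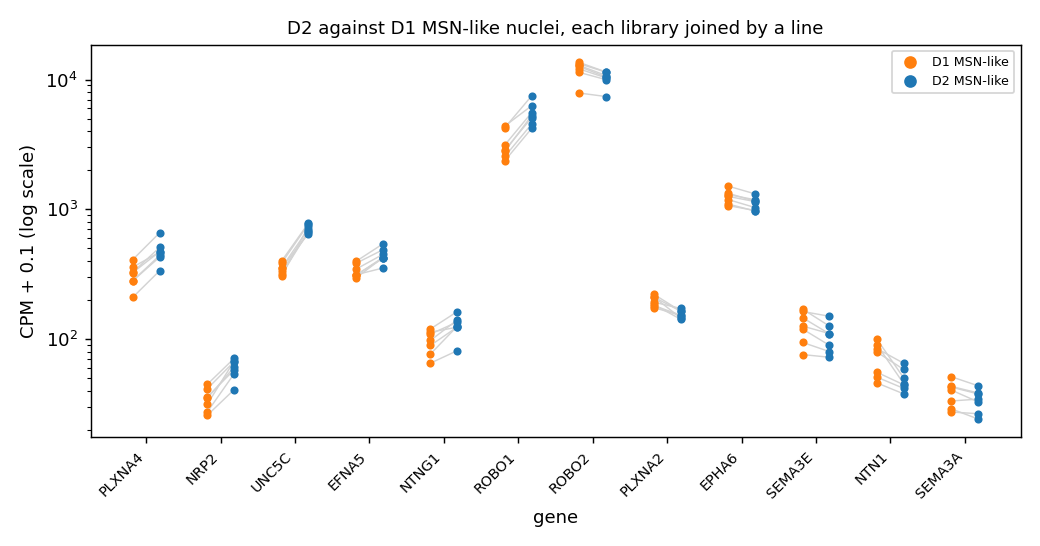
Level of 12 guidance genes in D1 (orange) and D2 (blue) MSN-like nuclei, as CPM + 0.1 on a log axis, with the 2 values of each of the 7 libraries joined by a line. The first 6 genes are higher in D2, with UNC5C at 650 to 783 CPM against 306 to 400 CPM, and the last 6 are lower.

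Oligodendrocyte precursor cells (OPCs) and mature oligodendrocytes were compared in the same way. Of 45 guidance genes tested, 27 were higher and 14 lower in OPC-like nuclei, where 34.5% of all 10426 genes tested were higher and 31.8% lower. The median log2 difference of the guidance genes was 1.47, against 0.00 for all genes tested.

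Both receptors and ligands were higher in OPC-like nuclei. PLXNA2, a semaphorin receptor, was at 1.40 to 3.62 CPM in oligodendrocyte-like and 98.6 to 135 CPM in OPC-like nuclei (log2 difference 5.44 ± 0.12, adjusted p = 9.08e-13). SEMA3D was at 1.9 to 5.4 CPM against 268 to 414 CPM (6.36 ± 0.17, adjusted p = 3.12e-11). ROBO1 was at 41.9 to 90.3 CPM against 2440 to 4659 CPM (6.10 ± 0.22, adjusted p = 5.31e-10). In all 3 genes the classes did not overlap. DCC (2.49 ± 0.13, adjusted p = 1.13e-09), UNC5A (4.35 ± 0.25, adjusted p = 4.43e-09) and NRP2 (2.53 ± 0.15, adjusted p = 5.30e-09) were higher in 7 of 7 libraries.

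The 14 genes lower in OPC-like nuclei included semaphorins, ephrins and EPH receptors, families that also had members among the 27 higher genes. SEMA6A, a transmembrane semaphorin, was at 218 to 277 CPM in oligodendrocyte-like and 69.2 to 99.4 CPM in OPC-like nuclei (log2 difference -1.48 ± 0.08, adjusted p = 1.27e-09). SEMA4D was at 528 to 622 CPM against 53.3 to 235 CPM (-2.70 ± 0.25, adjusted p = 2.41e-05). The OPC-like maximum of SEMA4D belonged to control library 3, and the other 6 libraries lay at 53.3 to 101 CPM. SEMA3C (-4.77 ± 0.34, adjusted p = 3.05e-06), EFNB2 (-1.98 ± 0.22, adjusted p = 9.62e-06), SEMA7A (-1.17 ± 0.16, adjusted p = 2.42e-05) and NTNG2 (-0.83 ± 0.14, adjusted p = 0.000155) were lower in 7 of 7 libraries. Control library 3, whose OPC-like sum had the highest oligodendrocyte markers, held the OPC-like maximum of all 6 of these genes, and the part of those markers in the values was not tested.

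**Figure D3:**
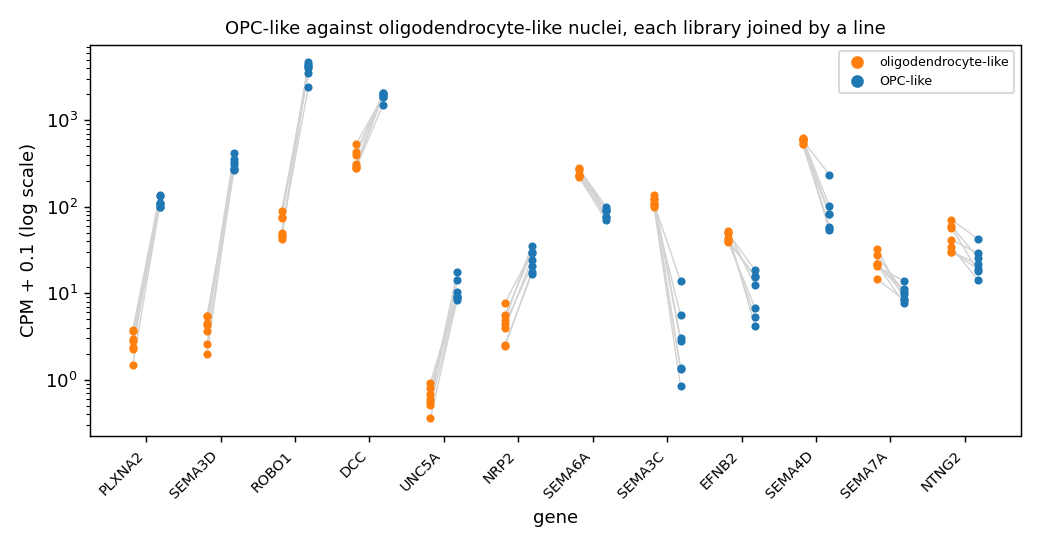
Level of 12 guidance genes in oligodendrocyte-like (orange) and OPC-like (blue) nuclei, as CPM + 0.1 on a log axis, with the 2 values of each of the 7 libraries joined by a line. ROBO1 goes from at most 90.3 CPM to at least 2440 CPM, and the highest OPC-like points of SEMA3C and SEMA4D are those of control library 3.

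OVT73 and control libraries were then compared within each of the 9 classes that had at least 10 nuclei in every library. No guidance gene passed an adjusted p of 0.05 in any class by edgeR's quasi-likelihood test. The share of all genes that passed was 0% in the oligodendrocyte-like, OPC-like, astrocyte-like, microglia-like, D1 MSN-like, D2 MSN-like, PV/Th interneuron-like and neuroblast-like classes, and 0.0134% in eccentric MSN-like nuclei. DESeq2 called none of the 70 genes either. In all, 62 of the 70 genes were tested in at least 1 class, and the lowest adjusted p of a guidance gene was 0.609 (SLIT1, eccentric MSN-like nuclei).

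Before adjustment, a p under 0.05 was reached by 2 of 41 guidance genes tested in oligodendrocyte-like nuclei (5.2% of all genes), 6 of 40 in OPC-like nuclei (5.88%), 3 of 39 in astrocyte-like nuclei (4.19%), 1 of 29 in microglia-like nuclei (2.54%) and 4 of 58 in D1 MSN-like nuclei (3.86%). The counts were 8 of 52 in D2 MSN-like nuclei (4.9%), 3 of 37 in eccentric MSN-like nuclei (7.26%), 4 of 36 in PV/Th interneuron-like nuclei (4.27%) and 3 of 27 in neuroblast-like nuclei (4.45%). The median log2 fold change of the guidance genes, OVT73 over control, lay between -0.10 (neuroblast-like) and 0.13 (D2 MSN-like), and that of all genes between -0.04 and -0.01.

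**Figure D4:**
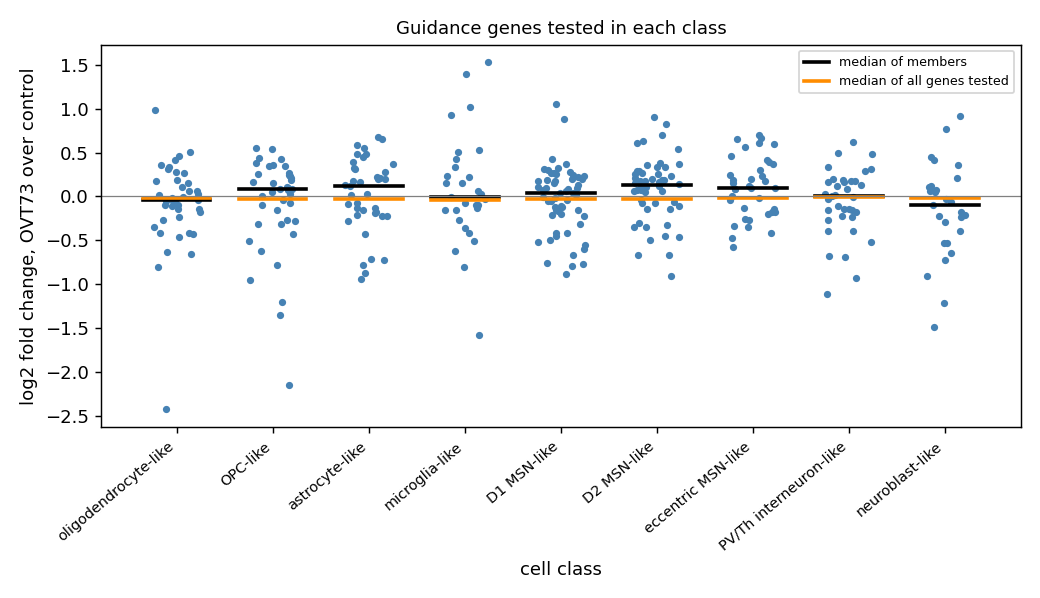
Log2 fold change, OVT73 over control, of each guidance gene tested (points) in 9 classes, with the median of the guidance genes (black) and of all genes tested (orange). The medians of the guidance genes lie between -0.10 and 0.13, and no point passed the adjusted threshold.

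The genes below were taken for their small unadjusted p, so their values and exact permutation p are descriptions. The permutation test runs over the 35 choices of 3 of 7 libraries, is two-sided and cannot give a p below 0.0286. Values are CPM scaled by the TMM factors of edgeR.

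In D1 MSN-like nuclei, DCC was at 3412, 3751 and 3403 normalised CPM in OVT73 and at 2766, 2960, 2803 and 2845 in control. The groups did not overlap (log2 fold change 0.31 ± 0.09, edgeR adjusted p = 0.956, exact permutation p = 0.0286). In D2 MSN-like nuclei, DCC was at 3164, 3865 and 3251 in OVT73 and at 2657, 2584, 2748 and 2746 in control, again without overlap (0.35 ± 0.10, edgeR adjusted p = 0.863). These 2 classes come from the same libraries and are not independent. EPHA4 in D1 MSN-like nuclei (log2 fold change 0.31 ± 0.13, edgeR adjusted p = 0.956) had a higher mean in OVT73, with overlapping groups. The same held for SEMA3E in D2 MSN-like nuclei (0.54 ± 0.19, edgeR adjusted p = 0.863).

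UNC5C, which also binds netrin, was at 816, 802 and 782 normalised CPM in OVT73 D2 MSN-like nuclei and at 652, 641, 663 and 667 in control. Its groups did not overlap, with a log2 fold change of 0.29 ± 0.08 (edgeR adjusted p = 0.863, exact permutation p = 0.0286). RGMA was lower in level. It was at 24.8, 23.5 and 21.0 in OVT73 D1 MSN-like nuclei and at 37.6, 28.7, 35.7 and 37.5 in control (log2 fold change -0.59 ± 0.15, edgeR adjusted p = 0.956, exact permutation p = 0.0571). In D2 MSN-like nuclei the RGMA groups overlapped (-0.46 ± 0.17, edgeR adjusted p = 0.863). Astrocyte markers, of the class in which RGMA was highest, summed to 361 to 406 CPM in OVT73 and 413 to 468 CPM in control D1 MSN-like nuclei, and to 299 to 335 CPM against 358 to 393 CPM in D2 MSN-like nuclei. They did not overlap between the groups, and their part in the RGMA values was not tested.

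SLIT2, the ligand of ROBO receptors, was called in no class. In oligodendrocyte-like nuclei it was at 276, 362 and 194 normalised CPM in OVT73 and at 108, 131, 131 and 192 in control, which just failed to overlap (log2 fold change 0.98 ± 0.24, edgeR adjusted p = 0.868, exact permutation p = 0.0286). In CPM without the TMM factors the groups overlapped, with OVT73 library 3 at 192 and control library 4 at 196. MSN markers in these sums were at 1548 to 1849 CPM in OVT73 and 1553 to 1668 CPM in control, and their part in the result was not tested. In D1 MSN-like nuclei SLIT2 was at 279, 529 and 266 in OVT73 and at 197, 216, 198 and 79.7 in control (1.05 ± 0.35, edgeR adjusted p = 0.956). OVT73 library 2 was the highest in both classes, and without it the D1 fold change was 0.66. In D2 MSN-like nuclei SLIT2 was at 214, 561 and 283 in OVT73 and at 208, 267, 195 and 124 in control, and the groups overlapped (0.83 ± 0.35, edgeR adjusted p = 0.863, exact permutation p = 0.0857). In OPC-like nuclei SLIT2 groups overlapped, at a mean of 7.26 in OVT73 and 13.0 in control. The naming rule did not pick SLIT2 in D2 MSN-like or OPC-like nuclei. NTNG2 in oligodendrocyte-like nuclei had a lower mean in OVT73, with overlapping groups (log2 fold change -0.63 ± 0.23, edgeR adjusted p = 0.885).

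In OPC-like nuclei SEMA5A was at 917, 1080 and 992 normalised CPM in OVT73 and at 752, 717, 522 and 730 in control. The groups did not overlap (log2 fold change 0.55 ± 0.15, edgeR adjusted p = 0.806, exact permutation p = 0.0286). The lowest value was that of control library 3, with its raised oligodendrocyte markers, and without that library the fold change was 0.44. SEMA3D (0.43 ± 0.15) and SEMA5B (0.53 ± 0.19) had overlapping groups. The markers of the OPC class itself summed to 21264 to 23757 CPM in OVT73 and 15304 to 21010 CPM in control, without overlap, and their part in these values was not tested. SEMA3E (-1.35 ± 0.49) and EPHA7 (-1.20 ± 0.48) rested on 91 and 101 UMIs over all 7 libraries.

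In astrocyte-like nuclei, which joined a cluster led by SLC1A2 and one led by DTHD1, NRP2 was at 207, 274 and 253 normalised CPM in OVT73 and at 169, 175, 140 and 185 in control (log2 fold change 0.56 ± 0.16, edgeR adjusted p = 1.00). EFNA5 (0.66 ± 0.22) and ROBO1 (0.49 ± 0.18) were likewise higher in every OVT73 library than in any control. Control library 3 was the lowest in all 3 genes, and without it the log2 fold changes were 0.47, 0.46 and 0.35. EFNA5 had a fold change of 0.38 in the SLC1A2-led and 0.89 in the DTHD1-led cluster alone, a split that was added once the data had been seen. The DTHD1-led cluster made up 52.4 to 55.9% of these nuclei in OVT73 and 52.4 to 71.0% in control libraries.

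In PV/Th interneuron-like nuclei ROBO2 was at 1462, 1251 and 642 normalised CPM in OVT73 and at 2612, 1681, 1577 and 2689 in control (log2 fold change -0.93 ± 0.31, edgeR adjusted p = 0.998, exact permutation p = 0.0857). ROBO1 had the opposite sign, at 10425, 11424 and 10952 in OVT73 and at 9651, 9975, 7433 and 8161 in control (0.31 ± 0.13, edgeR adjusted p = 0.998). MSN markers in this class were at 1860 to 2877 CPM in OVT73 and 1967 to 5388 CPM in control, with the highest value in control library 4, and their part in the ROBO2 levels was not tested. EPHA3 (0.50 ± 0.16) did not overlap between groups and SEMA3A (0.62 ± 0.23) did. The general interneuron markers summed to 19680 to 20437 CPM in OVT73 and 14820 to 19056 CPM in control, without overlap, and their part in these values was not tested.

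**Figure D5:**
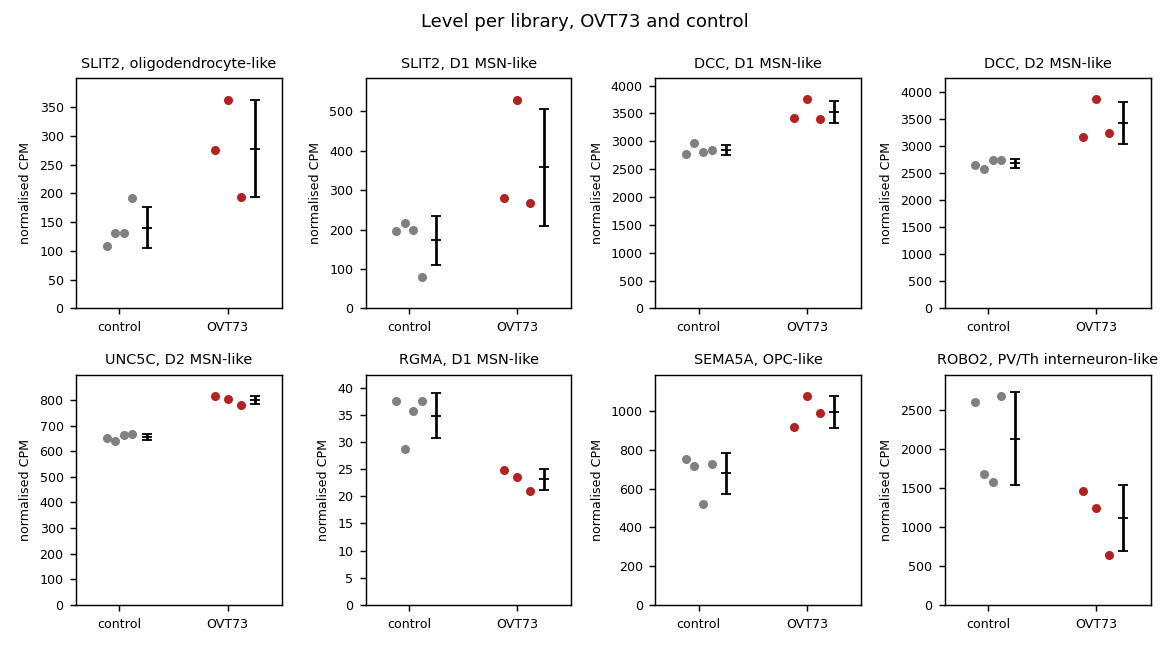
Normalised CPM per library of 8 gene and class pairs in control (grey, 4 libraries) and OVT73 (red, 3 libraries), each with its mean ± SD beside the points, on axes that start at 0. DCC in D1 MSN-like nuclei is at 3403 to 3751 in OVT73 and 2766 to 2960 in control, and no pair shown passed the adjusted threshold. All 8 pairs are ones whose groups did not overlap in normalised CPM, and named results with overlapping groups are not shown.

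UNC5D in microglia-like nuclei was at 50.0, 42.3 and 30.8 normalised CPM in OVT73 and at 25.5, 2.1, 13.2 and 22.5 in control, from 176 UMIs in all (log2 fold change 1.39 ± 0.49, edgeR adjusted p = 1.00). Without control library 3 the fold change was 1.31. MSN markers in the microglia-like sums were at 605 to 683 CPM in OVT73 and 311 to 979 CPM in control. Control library 2 was the lowest in these markers and in UNC5D, and their part in the UNC5D values was not tested. In eccentric MSN-like nuclei SLIT1 (0.66 ± 0.23), SEMA5A (0.42 ± 0.17) and SEMA5B (0.37 ± 0.16) had higher means in OVT73. In neuroblast-like nuclei RGMA (-1.21 ± 0.50), EFNA5 (-1.49 ± 0.65) and EPHA5 (-0.90 ± 0.40) had lower means, with overlapping groups, and the first 2 rested on 80 and 77 UMIs. Without control library 1 the RGMA value was -0.54, and without control library 2 that of EPHA5 was -0.44. Astrocyte markers in the neuroblast-like sums were at 285 to 390 CPM in OVT73 and 485 to 753 CPM in control, without overlap, and their part in these values was not tested.

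Whether the OVT73 difference itself differed between D2 and D1 MSN-like nuclei was tested as an interaction within libraries. None of 51 guidance genes passed an adjusted p of 0.05, as was the case for 0% of all genes tested, by edgeR. Before adjustment 2 of the 51 had a p under 0.05, SEMA4C and SEMA6B, as did 4.89% of all genes, and DESeq2 called none.

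Axon guidance also involves further cell-surface molecules and cytoskeletal regulators such as the SRGAP, PAK and VAV proteins, and 58 such genes were followed as a second list. None passed the adjusted threshold between OVT73 and control in any of the 9 classes by edgeR. Before adjustment, 0 of 41 genes tested in microglia-like nuclei had a p under 0.05, where 2.54% of all genes did. For PV/Th interneuron-like nuclei the count was 3 of 46, against 4.27% of all genes. Each remaining class had 1 or 2 such genes among 36 to 55 tested, beside shares of 3.86% to 7.26% over all genes. Between classes, 13 of the 55 tested were higher and 8 lower in D2 than in D1 MSN-like nuclei, against 6.53% and 6.2% of all genes tested. DSCAM, an immunoglobulin receptor that also binds netrin, was lower (log2 difference -0.88 ± 0.03, adjusted p = 1.20e-23) and VAV3, a guanine nucleotide exchange factor, was higher (0.41 ± 0.02, adjusted p = 2.20e-15). In OPC-like against oligodendrocyte-like nuclei, 23 of 48 were higher and 16 lower, against 34.5% and 31.8% of all genes tested. SRGAP1, which binds ROBO receptors, was higher in OPC-like nuclei (3.14 ± 0.08, adjusted p = 2.15e-12), as was ROBO1. SRGAP3 (-0.11 ± 0.06, adjusted p = 0.147) and ROBO2 (-0.41 ± 0.19, adjusted p = 0.0849) were not called.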

How the data were processed

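For each library the authors deposited raw UMI counts per feature and barcode, made with Cell Ranger 7.0.0 (with STAR 2.7.2a per the labels' processing notes) on Oar_rambouillet_v1.0. Limits were 200 to 7500 genes per nucleus and a mitochondrial share of no more than 5%, over the 11 mitochondrial genes that the files name, and the 4% with the highest scrublet scores were removed from each library. The 3000 most variable genes, without the 70 guidance genes, gave 30 components, corrected between libraries by a Harmony implementation and clustered at resolution 1.0 (scanpy 1.11.5, igraph 0.11.9) into 31 clusters. The rule that names clusters from markers was written in 5 versions while the marker profiles were in view, before any comparison of groups, and version 4 was used. The fifth, which kept the DTHD1-led cluster out of the astrocyte-like class and 1 cluster out of the OPC-like class, was dropped. Of the 33226 nuclei kept, 2352 stayed unnamed.

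UMIs were summed per library and class and tested in edgeR 4.0.16 (filterByExpr, TMM, robust quasi-likelihood fit, two-sided), checked on simulated data, with DESeq2 1.42.0 as an alternative. The SE of a log2 fold change was derived from the quasi-likelihood F. Thresholds were 0.05. Guidance genes, lists and the naming of genes (in OVT73 comparisons at most 3 per direction and class with an unadjusted p under 0.05, in class contrasts the 6 smallest p per direction, in levels the 6 highest per role group) were chosen with earlier results of these data known. UNC50 and UNC5CL were not counted as UNC5 receptors. Coordinates and sequences were not used here. The samples were separate libraries, and p-values measure the spread between them. Intervals and spreads cover the libraries as pooled, not single sheep.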

Additional observations from a re-analysis of the deposited data

Results flagged for a closer look

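In 2 of the named results 1 control library lay far from the other 3, by Dixon's criterion, which marks about 1 in 20 groups by chance. SEMA5A in OPC-like nuclei was at 522 normalised CPM in control library 3, against 717 to 752 in the other control libraries. SLIT2 in D1 MSN-like nuclei was at 79.7 normalised CPM in control library 4, against 197 to 216 in the others.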

How the results depend on the processing

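No guidance gene was called between OVT73 and control in any class under DESeq2, library totals without TMM, thinning to the smallest library, the molecule label as a term, the 5 pooled libraries alone, clustering with the guidance genes kept, doublets kept, or either astrocyte-like cluster alone (the last chosen after seeing the data). The molecule label reads total RNA for some libraries and nuclear RNA for the others. With every gene that had a UMI in place of the filter, 1 guidance gene was called in eccentric MSN-like nuclei (SEMA3A), among 35 calls in 17875 genes, and 2 in neuroblast-like nuclei (DCC and SLIT2), among 7 calls in 15686 genes. Leaving out single libraries gave 0 calls in 8 classes and 0 to 1 in neuroblast-like nuclei, where UNC5D was called without OVT73 library 1, as 1 of 2 calls in 4437 genes. The cause was not tested. Counts of guidance genes with an unadjusted p under 0.05 were less stable, and moved in 38 refits and stayed alike in 99. The same count over all genes was higher in every class with the 5 pooled libraries alone. It was 1099 against 547 in oligodendrocyte-like, 1239 against 547 in OPC-like and 823 against 210 in microglia-like nuclei. In D1 MSN-like nuclei it ranged from 301 to 697 without single libraries, against 481 with all. Calls of guidance genes ranged from 14 to 23 around 18 between D2 and D1 MSN-like nuclei and from 39 to 48 around 41 between OPC-like and oligodendrocyte-like nuclei. Of all genes, DESeq2 called 925 between D2 and D1 MSN-like nuclei where edgeR called 1505. No fold change of a named gene changed sign in 717 refits. These genes were named for small p, and the refits reuse most of the same libraries, so a kept sign says little about stability. Results between OVT73 and control had no call to lose. In the class contrasts 11 refits lost the call, all of NTN1 and SEMA3A between D2 and D1 MSN-like nuclei. Guidance genes at 10 CPM or more numbered 55 to 56 under each alternative. No paired analysis was possible because the replicate numbers were given in accession order and the labels pair no libraries across groups. Depth limits endothelial-like sums most, at 3813 to 30630 UMIs per library.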

Other observations

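Guidance genes were also measured in clusters that stayed unnamed, whose values enter no comparison. The largest, of 827 nuclei led by MCTP1, had ROBO2 at 10276 ± 1706 CPM, ROBO1 at 3290 ± 1122 CPM, DCC at 2612 ± 558 CPM and SLIT3 at 1544 ± 281 CPM (SD, 7 libraries). In this cluster 8 of 11 MSN markers were raised. Its median was 1206 UMIs per nucleus, against 22533 in D1 MSN-like nuclei. A cluster of 294 nuclei led by CPNE4 had ROBO2 at 8254 ± 4222 CPM and EPHA5 at 1073 ± 297 CPM. A cluster of 271 nuclei led by SLC17A6, a glutamate transporter of excitatory neurons, had EPHA3 at 1876 ± 1491 CPM and UNC5D at 1369 ± 1091 CPM, and 178 of its nuclei came from 1 library. Cycling nuclei led by TOP2A, 146 in all, had DCC at 1905 ± 1483 CPM and SEMA5A at 480 ± 401 CPM.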
